A study of Mus musculus with 6 samples.

Results

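Mbd3 knockdown was compared with a control shRNA in mouse embryonic stem cells after 4 days of neural differentiation. The comparison takes 2 of the 6 arrays of the series, the one labelled sh Mbd3 Day 4 and the one labelled sh Ctrl. Day 4, and every probe set that carries exactly 1 gene symbol (23521 of 34351). These probe sets stand for 22180 genes, of which 13588 were compared: a gene was left out where both its values lay under the median of their array. Embryonic stem cells were infected with a lentivirus encoding a short hairpin RNA (shRNA) against Mbd3, against Chd4 or a control shRNA. Each line was sampled on gelatin in serum medium with the cytokine LIF (day 0) and after reaggregation in low-adhesion wells with serum replacement (day 4). No source used here names the stem cell line, the hairpin sequences, a selection step or whether a sample was 1 culture or several. Each group is 1 Mouse Gene 2.0 ST array, so no difference has a replicate check, no test was possible, and "higher" and "lower" describe these arrays only.

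Mbd3 belongs to NuRD, the nucleosome remodeling and deacetylase complex. NuRD joins an ATPase that moves nucleosomes (CHD4 or a paralog), histone deacetylases (HDAC1 and HDAC2), metastasis-associated scaffold proteins (the MTA family), the GATAD2 bridging proteins and the histone chaperones RBBP4 and RBBP7. MBD2 and MBD3 occupy the same place in the complex and exclude each other. MBD3 has a methyl-CpG-binding domain with little preference for methylated DNA. In stem cells NuRD is known for holding down genes of the pluripotent state, and cells that lack Mbd3 are known to leave that state poorly when LIF is taken away. In aggregates without LIF, stem cells normally close the naive program and open genes of the neural plate, then of neural progenitors and first neurons.

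The targeted gene came first as a check of the label. Mbd3 read 183 in control and 138 in knockdown cells at day 4, or 75.5% of control. At day 0 it had read 216 and 92.8, or 43.0% of control. In the Chd4 line it read 204 at both days. The remaining Mbd3 signal was thus larger at day 4 than at day 0, and the day 4 difference was -0.41 in log2 intensity, against a median size of 0.26 over all genes compared. As a check of the tissue label, 8 markers of pluripotent cells summed to an intensity of 8109 in control cells at day 0 and 2875 at day 4, while 7 neural progenitor markers summed to 369 and 4583. In the Mbd3 knockdown at day 4 the same sums were 5288 and 930. The 5 neuron markers summed to 2088 and 2568 in control and 1234 and 1233 in the Mbd3 line at day 0 and day 4. These sums thus differed at day 0 already, largely through Stmn2, whose values are given below with the postmitotic neuron genes. At day 4, 4 primed epiblast markers summed to 916 in control and 1702 in the knockdown, and 2 germline markers to 162 and 411. Each of these 2 rises came mostly from 1 gene. Dnmt3b differed by 1.19 on the log2 scale and Otx2 by -0.38, and among the germline markers Dazl differed by 2.71 and Ddx4 by -0.38. Markers of 3 mesoderm, 4 endoderm, 4 fibroblast and 3 muscle genes had sums between 123 and 233 in control and between 130 and 206 in knockdown cells at day 4. Trophectoderm markers summed to 171 in control and 216 in the knockdown, those of endothelium and blood to 156 and 178, and those of neural crest to 146 and 157. In bulk RNA, fewer cells of a type and less RNA per cell cannot be told apart, which applies to every result here.

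At day 4, 468 genes stood 2-fold or more above control in Mbd3-knockdown cells (3.44% of the genes compared) and 665 stood 2-fold or more below it (4.89%), or 8.34% in either direction. By any size, 44.1% of the genes were above control and 55.9% below. Past 4-fold stood 62 higher and 109 lower genes, and past 8-fold 2 and 15. The median log2 difference was -0.06, with an SD of 0.58 across genes, and 49.8% of genes lay within 1.2-fold. Lower genes therefore reached further from the diagonal than higher ones. Where the dimmer of 2 values was under 41.4, the highest median of the 6 arrays, a fold is given below against 41.4 as "at least". That applied to 83 of the higher and 119 of the lower genes, and 433 and 616 passed 2-fold with the dim value set to 41.4. The genes closest to the 2-fold line were Fgd1 and Tc2n just inside it on the higher side, with Dsp and Sgms1 just outside, and Xylt1 and Epo just inside on the lower side, with Robo1 and Vstm2b just outside.

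**Figure D1:**
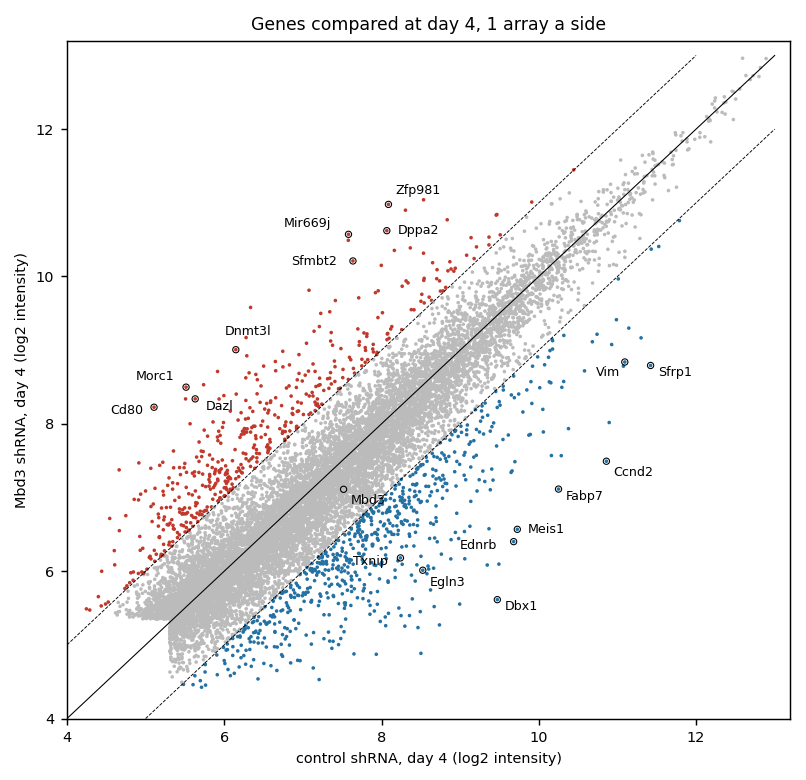
Log2 intensity of each of the 13588 genes compared in control cells (horizontal axis) and Mbd3-knockdown cells (vertical axis) at day 4, 1 array a side. The solid line marks equal values and the dashed lines 2-fold; red points are the 468 higher and blue points the 665 lower genes, and circles mark genes named in the text. Dbx1, Ccnd2, Fabp7, Meis1 and Ednrb lie far below the lines and Dppa2, Zfp981, Sfmbt2 and Dnmt3l far above, while Mbd3 itself lies inside them.

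Among the 16 subunits and paralogs of NuRD, 1 was past 2-fold above control and 1 below, and the median log2 difference was -0.08. Mta3, a scaffold subunit, read 484 in control and 1076 in Mbd3-knockdown cells at day 4 (2.22-fold). At day 0 it had read 870 in control and 1048 in knockdown cells, so that the day 4 control was the low array of the 4. Chd3, the paralog of the Chd4 ATPase, read 418 and 187 (2.24-fold lower), against 94.3 and 118 at day 0, so that the day 4 control was the high one. A dimmer Chd3 probe set differed by -0.67, and the mean of both by -0.92, under the 2-fold line. Hdac2, a deacetylase, read 855 and 455 (1.88-fold lower), whereas Hdac1 read 1044 and 1195. Mbd2, which takes the place of MBD3 in other NuRD particles, read 157 and 186. Chd4 read 1021 and 942, Chd5, a further ATPase paralog, 54.2 and 71.4, and the other scaffold, bridging and chaperone subunits (Mta1, Mta2, Gatad2a, Gatad2b, Rbbp4, Rbbp7, Cdk2ap1 and Cdk2ap2) differed by between -0.30 and 0.33.

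The genes of radial glia and neural stem cells had the lowest median among the lists with more than 15 genes compared. Of all 55 lists, only the proneural genes, with 15 compared, had a lower one (-1.74). Of 23 radial glia and neural stem genes, 16 were at least 2-fold lower and 0 higher in the Mbd3 knockdown. Their list median was -1.64, against -0.06 over all genes. Fabp7, which carries fatty acids in radial glia, read 29.3 and 1219 in control cells at day 0 and day 4, 30.8 and 139 in Mbd3-knockdown cells, and 28.1 and 89.0 in Chd4-knockdown cells. All 3 lines were dim at day 0, and at day 4 the Mbd3 line was 8.79-fold lower than control. Ednrb, the endothelin receptor B, read 821 in control and 84.5 in knockdown cells at day 4 (9.71-fold lower), from 45.0 and 41.2 at day 0. Hes5, a Notch target that keeps progenitors dividing, read 314 and 38.2, at least 7.59-fold lower, but a dimmer probe set of Hes5 read 54.4 and 47.3 (-0.20), and the mean of both was -1.62. The Mbd3 value of the brighter Hes5 probe set lay under the array median, while Fabp7 and Ednrb stayed above it. Lrrn1 read 1248 and 190, the cell adhesion gene Cdh2 2159 and 440, and the intermediate filament gene Nes 409 and 87.5. Ckb, a creatine kinase, was the 1 member above control, by 0.92 on the log2 scale.

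Transcription factors that specify the neural plate showed the same direction, with 10 of 19 at least 2-fold lower, 0 higher and a median of -1.04. Sox1, the earliest neural plate marker of the SOX family, read 1033 in control and 360 in Mbd3-knockdown cells at day 4, from 46.5 and 37.9 at day 0. The Chd4 line read 159. Sox1 thus stood well above its day 0 level in the Mbd3 line, 2.87-fold under control. The class III POU factors Pou3f3 and Pou3f4 read 247 and 298 in control against 46.9 and 45.3 in the knockdown, and Pou3f2 read 253 against 39.9, at least 6.11-fold lower. By contrast Sox2, which stem cells and neural progenitors both express, read 1416 and 1316, and the ZIC factors Zic2 and Zic5 differed by 0.13 and 0.65.

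Genes that give neural tissue its position were lower on several axes. Of 26 dorsoventral patterning genes, 11 were at least 2-fold lower and 0 higher (median -0.88), of 21 forebrain and midbrain genes 8 and 0 (median -0.64), and of 9 hindbrain and TALE homeobox regulators 5 and 0 (median -1.19). Dbx1, a homeobox gene of interneuron progenitors in the middle of the neural tube, read 711 in control and 49.0 in the knockdown at day 4 and between 39.5 and 42.2 on the other 4 arrays. It had the largest lower difference of all genes compared, 14.5-fold. Pax6, a determinant of progenitor domains, read 382 and 62.5 (6.12-fold lower), Irx3 532 and 92.9, and Nkx6-1 232 and 46.4. Members of the ventral, middle and dorsal domains were therefore all among the lower genes, with the dorsal gene Pax3 at 2.88-fold. Meis1 and Meis2, TALE cofactors of HOX proteins, read 848 and 1145 in control and 94.9 and 190 in the knockdown. Otx2, which marks the anterior epiblast as well as the forebrain, read 122 and 93.8, a difference of -0.38.

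Of 28 Hox genes measured, 10 were bright enough to be compared, and 5 of these were at least 2-fold lower. Hoxb2, a hindbrain gene, read 510 in control and 47.0 in the knockdown at day 4 (10.9-fold lower). Hoxa2 read 394 and 53.6, and Hoxb1 530 and 158. The 3 neighbours Hoxb1, Hoxb2 and Hoxb3 were all past 2-fold, whereas Hoxa7, Hoxb5, Hoxd8 and Hoxd10 differed by less than 0.1. Genes that carry or respond to retinoic acid, the signal that opens anterior Hox genes, were mixed. Of 17, 6 were at least 2-fold lower and 1 higher (median -0.15). The binding proteins Crabp1 and Crabp2 read 1330 and 1905 in control against 245 and 259 in the knockdown, while the receptors Rara, Rarb, Rarg and Rxrb differed by between -0.22 and 0.54. The 1 higher gene was Stra8, a retinoic acid target best known from germ cells entering meiosis, at least 2.82-fold.

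Notch signaling holds progenitors back from becoming neurons, and proneural factors push them forward. Both sides were lower in the knockdown: 9 of 23 Notch genes were at least 2-fold lower and 1 higher (median -0.78), and 9 of 15 proneural genes were lower and 0 higher (median -1.74). The ligand Dll1 read 277 and 84.3 (with the mean of its probe sets at -0.86, under 2-fold), the ligand Jag1 405 and 99.5, and the feedback inhibitor Nrarp 434 and 75.1. Rfng, a glycosyltransferase acting on Notch receptors, was the higher one, at 107 and 234, and the receptor Notch1 differed by -0.59. Neurog1, which starts neuronal commitment, read 244 in control and 29.3 in the knockdown, at least 5.90-fold lower. Nhlh1 and Neurod4, expressed in newborn neurons, were at least 6.41-fold and 4.85-fold lower, and their knockdown values lay under the array median. For these factors the Mbd3 day 4 value could not be told from a dim gene, so that only a bound is known. A gene bright in control cells alone passed the filter and could then only read lower. One bright in the knockdown alone could only read higher. The proneural median was smaller in size without that filter, with both arrays at or above their median, and with the mean of probe sets.

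In the list of 30 postmitotic neuron genes, 17 were past 2-fold below control and 0 above, with a median of -1.21. Chrna3, a nicotinic acetylcholine receptor subunit, read 427 in control and 38.6 in the knockdown at day 4 and 36.3 or less on the other 4 arrays, at least 10.3-fold lower. Nefl, a neurofilament subunit, read 533 and 71.9 (7.42-fold lower). It also differed at day 0, at 253 in control against 90.9. Stmn2 read 1156 and 518 at day 4 and 1517 and 761 at day 0, so that this gene of growing axons was bright in stem cells too. Tubb3, the tubulin often used to stain neurons, read 822 and 494, short of 2-fold.

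Among 34 axon guidance genes, 15 were at least 2-fold lower and 2 higher (median -0.89). The receptors Robo2 and Dcc read 360 and 265 in control and 43.8 and 41.6 in the knockdown. Their ligands were lower as well, with Slit1 at 3.29-fold and Ntn1 at 3.46-fold. The 2 higher genes were the semaphorin Sema3e (142 and 314) and the ephrin receptor Epha2 (83.8 and 250), which stem cells express. Clustered protocadherins, cell-surface proteins that give neurons their identity tags, were a family singled out after the values were seen. Of 9 compared, 7 Pcdhb genes were at least 2-fold lower, from Pcdhb6 at -1.03 to Pcdhb22 at -1.50. Each was dim, with Pcdhb22 at 67.6 in control and 24.0 in the knockdown. Set against 41.4, none of the 7 reached 2-fold, and their probes may share signal between near copies.

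**Figure D2:**
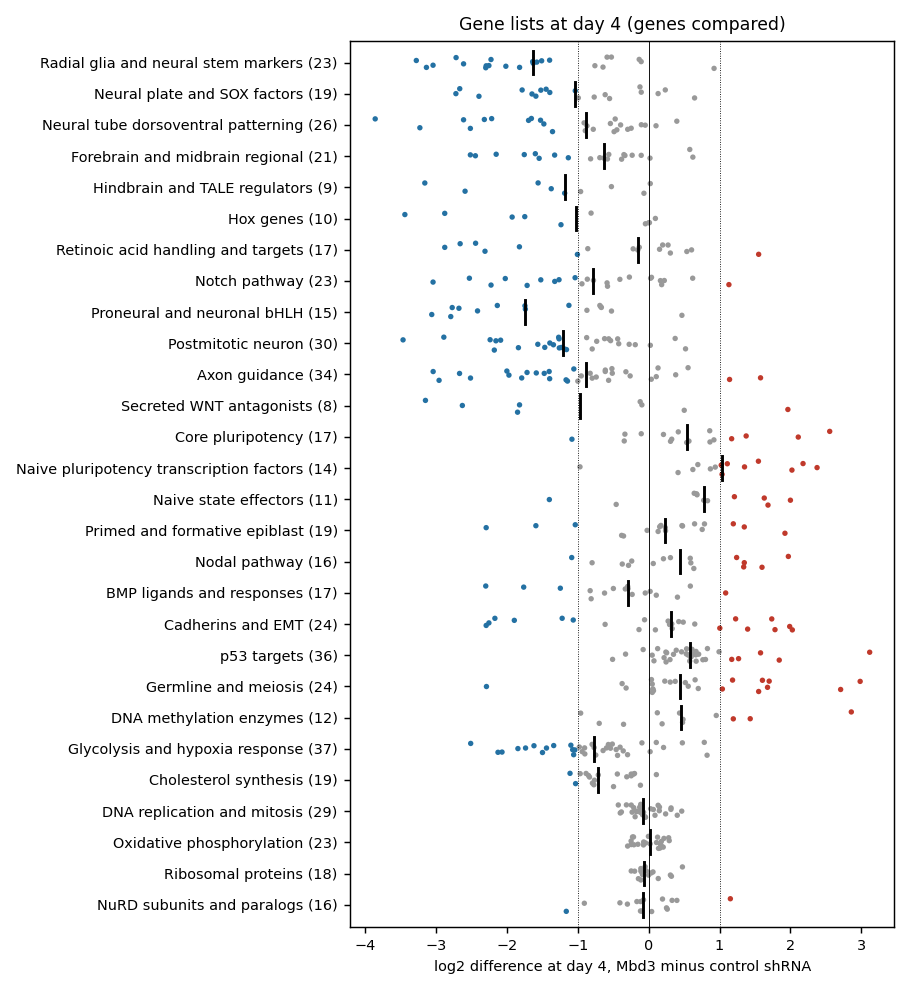
Log2 difference at day 4, Mbd3-knockdown minus control cells, for each gene compared in 28 gene lists (number of genes in brackets), with 1 point per gene, a bar at each list median and dotted lines at 2-fold. Points at least 2-fold lower are blue and points at least 2-fold higher red; neural lists lie to the left, naive pluripotency to the right, and replication, oxidative phosphorylation and ribosomal genes close to 0.

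Secreted antagonists of WNT signaling included some of the brightest lower genes. Of 8 compared, 4 were at least 2-fold lower and 1 higher (median -0.97). Of these 4, Sfrp2 had a dimmer probe set that differed by 0.44 beside -1.85. Sfrp1, a decoy receptor for WNT ligands, read 383 and 2744 in control cells at day 0 and day 4, 184 and 443 in Mbd3-knockdown cells, and 434 and 227 in Chd4-knockdown cells. The control day 4 array was far above the other 5. Frzb, of the same family, read 407 and 45.9 (8.88-fold lower). Notum, an enzyme that inactivates WNT ligands, went the other way at 45.2 and 176. Among 17 WNT ligands, receptors and targets, Wnt7a was at least 2.04-fold and Fzd3 4.54-fold lower, Wnt8a was 2.93-fold higher, and the target Axin2 differed by -0.34.

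Cyclin D genes were the only members of the cell cycle lists past 2-fold. Ccnd2, whose product drives the G1 phase, read 306 and 1858 in control, 60.6 and 180 in Mbd3-knockdown and 48.4 and 119 in Chd4-knockdown cells at day 0 and day 4. Both knockdowns were below control at both days. Ccnd1 read 1139 and 377 at day 4, and 581 and 261 at day 0, whereas Ccnd3 differed by 0.34. In all, 20 of the 22 cyclin, CDK, inhibitor and pocket protein genes stayed within 2-fold, with Cdkn1a at 0.61, Cdkn1c at -0.94 and Rb1 at 0.03. All 29 genes of DNA replication and mitosis lay between -0.43 and 0.47, with Mki67, a marker of cycling cells, at 1133 and 963.

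Naive pluripotency factors formed the counterpart on the higher side. Of 14 compared, 8 were past 2-fold above control and 0 below it, and the list median was 1.03. Tbx3 read 637 and 79.7 in control at day 0 and day 4, and 768 and 414 in Mbd3-knockdown cells (5.19-fold higher at day 4). Tfcp2l1, a target of LIF signaling, read 85.7 and 388, Zfp42 (also named Rex1) 330 and 1340, and the nuclear receptor Nr5a2 89.8 and 263. At day 0 the Mbd3 line read 1414 for Tfcp2l1, 1745 for Zfp42 and 480 for Nr5a2, so each was lower at day 4 than at day 0 in that line as well. Klf4 and Klf5 were barely past the line, at 2.05-fold and 2.03-fold, with 138 and 356 in the knockdown. Esrrb read 51.0 and 97.8, short of 2-fold, and Sall3 was the 1 member below control, at -0.97.

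Of 17 core pluripotency genes, 4 were past 2-fold above control and 1 below (median 0.54). Dppa2 and Dppa4, partner proteins that bind DNA in early embryos, led the list. Dppa2 read 2214 and 268 in control at day 0 and day 4, and 1746 and 1576 in Mbd3-knockdown cells, so that the knockdown's values of both days were close. Dppa4 read 148 and 639 at day 4, and Utf1 703 and 1825. The central factors lay under 2-fold, with Nanog at 768 and 1454 and Pou5f1 at 77.6 and 141. Lin28b, an RNA-binding protein that blocks let-7 maturation, was the lower one, at 219 and 103, and it dropped under 2-fold after quantile normalization. Among 11 naive state effectors, 4 were 2-fold or more higher (Zscan10, Fbxo15, Pecam1 and Gdf3, by 2.31-fold to 4.00-fold), and Jam2, a junction protein, was 2.64-fold lower. Noncoding Platr transcripts, which are associated with pluripotent cells and were singled out after the values were seen, had 5 of 11 members past 2-fold on the higher side and 0 on the lower.

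Genes of the primed and formative epiblast, the stage between the naive state and the germ layers, divided. Of 19, 3 were past 2-fold above control and 3 below (median 0.23). Dnmt3b read 827 and 591 in control and 485 and 1353 in Mbd3-knockdown cells at day 0 and day 4, so that the knockdown was below control at day 0 and above it at day 4. Grhl2, a driver of epithelial enhancers, was 3.79-fold higher at day 4. The lower members were Cdh2, Sox3 and Sox4, which neural cells also express. Fgf5 and Pou3f1, markers of that stage, differed by 0.47 and 0.23.

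Nodal, the TGF-beta ligand that opposes neural fate, was higher together with its feedback genes. Of 16 pathway genes, 5 were past 2-fold above control and 1 below (median 0.45). Nodal read 88.6 and 226, its secreted inhibitors Lefty1 and Lefty2 114 and 446 and 81.6 and 247, the intracellular inhibitor Smad7 85.0 and 201, and the transcription partner Foxh1 144 and 364. The lower gene was the activin receptor Acvr2a, at 382 and 180, and the SMAD carriers of the signal, Smad2, Smad3 and Smad4, differed by 0.06, -0.80 and -0.24. Ligand, inhibitors and partner were thus each more than 2-fold higher, while Smad3 was below control. On the BMP side, 1 of 17 genes was higher and 3 lower (median -0.30). Bmp4, another signal against neural fate, read 1072 and 95.7 in control and 481 and 203 in the knockdown at day 0 and day 4. The responding genes Id2 and Id4 and the antagonist Fst were 3.40-fold, 2.37-fold and 4.92-fold lower.

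Fibroblast growth factor genes had 1 of 22 members higher and 2 lower (median 0.16). Fgf15 read 938 and 230 and the receptor Fgfr3 240 and 44.0 at day 4, and the ERK-responsive factor Etv5 278 and 625. Fgf4, made by pluripotent cells, read 119 and 211, under 2-fold. For LIF and STAT3 genes, with 13 compared, the RNA-decay factor Zfp36 was 2.44-fold higher and the kinase Jak2 3.06-fold lower, and the receptor Lifr differed by 0.38.

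The cadherin switch, in which E-cadherin gives way to N-cadherin as the neural plate forms, appeared on both sides. Cdh1 (E-cadherin) read 1158 and 371 in control and 1224 and 1275 in Mbd3-knockdown cells at day 0 and day 4. Cdh2 (N-cadherin) read 275 and 2159 in control and 171 and 440 in the knockdown. Cdh1 was thus 3.44-fold higher and Cdh2 4.90-fold lower in the knockdown at day 4. Of 24 cadherin and epithelial to mesenchymal genes, 7 were past 2-fold above control and 6 below. The epithelial genes Epcam (211 and 555), Cldn4 (107 and 437), Cldn6 (93.1 and 310) and the splicing regulator Esrp1 (124 and 491) were among the higher. Vim, Zeb1, Cdh6, Cdh11 and Cdh20 were among the lower, with Vim, the intermediate filament of mesenchyme and radial glia, at 2186 and 458. Of 25 extracellular matrix genes, 6 were past 2-fold above control and 1 below, with 12 above and 13 below by any size (median -0.18). The basement membrane genes Lama5, Lamb1, Nid2 and Hspg2 were 2.01-fold to 2.98-fold higher and Lama1 3.03-fold lower, while Nid1 differed by -0.20 and Lamc1 by 0.56, and Lamb1 dropped under 2-fold with centring. Of 12 trophectoderm genes, 3 were higher and 0 lower (median 0.69): Tfap2c, Ascl2 and Plet1, with the keratins Krt8 and Krt18 at 0.65 and 0.33 and the defining factor Cdx2 too dim to compare, at 39.1 and 38.9.

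Germline genes are held silent in somatic cells by DNA methylation and by repressors that bind their promoters. Of 24 compared, 8 were past 2-fold above control and 1 below (median 0.45, and 7 higher with dim values set to 41.4). Dazl, which controls translation in germ cells, read 113 and 49.5 in control at day 0 and day 4, 59.6 and 324 in Mbd3-knockdown cells and 132 and 1104 in Chd4-knockdown cells. The Mbd3 day 4 array was above all 3 arrays of day 0. Sohlh2, a factor of early oocytes and spermatogonia, read 307 and 934 at day 4 and had stood at 192 and 209 at day 0, so its Mbd3 day 4 array was also the highest of these 4. Morc1, by contrast, read 397 and 45.7 in control and 318 and 362 in the Mbd3 line, so that its knockdown values of both days were close. Tdrd12, Prdm1 and Dmrt1 were 3.20-fold, 3.25-fold and 2.27-fold higher, Stra8 at least 2.82-fold and Hormad1 at least 1.35-fold, and Tdrkh was at least 3.91-fold lower. Ddx4, a defining germ cell gene, read 113 and 86.8. Of the 28 germline genes with a promoter in the RefSeq table, 10 held CACGTG (35.7%, against 11.5% of the genes compared and 8.09% of all 27025 promoters) and 6 held TTCCCGC on either strand (21.4%, against 9.66% and 5.29%). Among the compared members, 1 of 6 with CACGTG and 6 of 13 without it were past 2-fold in either direction.

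Enzymes of DNA methylation had 3 of 12 members at least 2-fold higher and 0 lower (median 0.46). Dnmt3l, the catalytically inactive cofactor of the de novo methyltransferases, read 559 and 70.9 in control and 484 and 514 in Mbd3-knockdown cells at day 0 and day 4 (7.26-fold higher at day 4). Tet1, which oxidizes methylated cytosine, read 373 and 1006, and the maintenance enzyme Dnmt1 837 and 911. In the Polycomb list Phf19 alone of 22 was past 2-fold (73.4 and 165), and of 20 BAF chromatin remodeling subunits 0 were, with a range of -0.88 to 0.43.

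**Figure D3:**
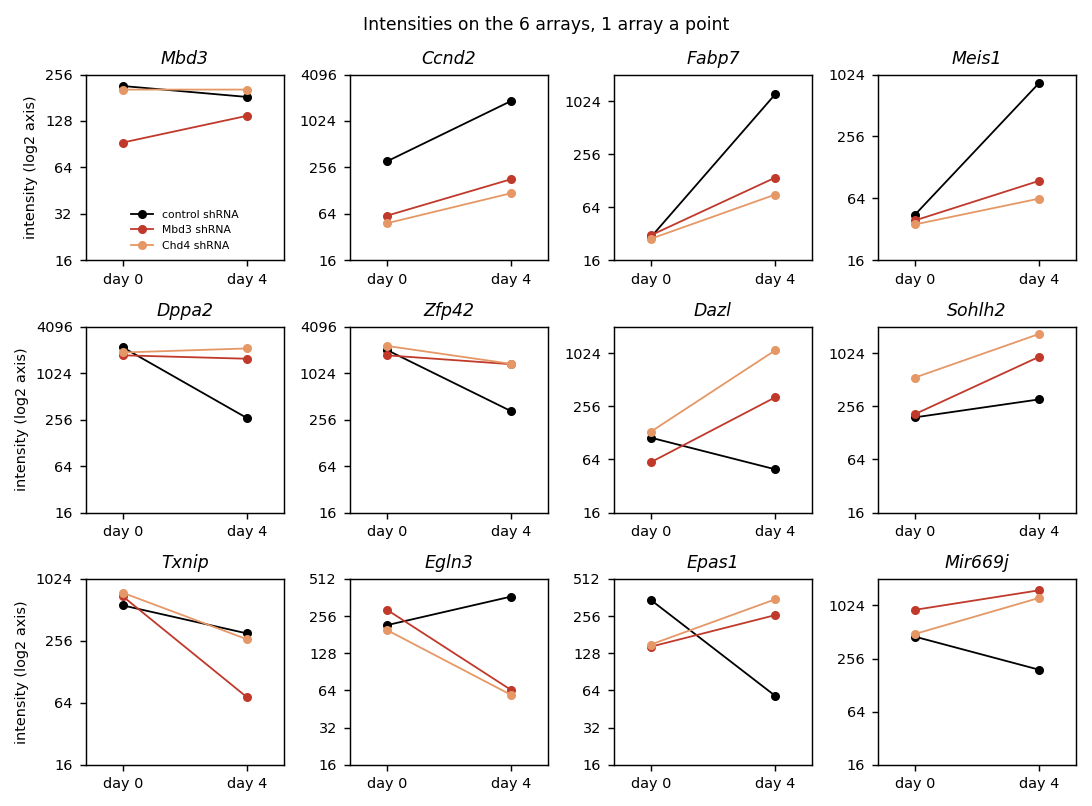
Intensity (log2 axis) of 12 genes on each of the 6 arrays at day 0 and day 4, with 1 array per point, black for control, red for Mbd3 and orange for Chd4 shRNA. Ccnd2, Fabp7 and Meis1 are highest in control at day 4; Dppa2 and Zfp42 read 1576 and 1340 in the Mbd3 line at day 4; Txnip is low in the Mbd3 line alone at day 4, and Epas1 changes order between the days.

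A block of microRNA genes inside Sfmbt2, a Polycomb-related gene, held several of the largest higher differences. These microRNAs come from tandem copies in an intron, so probe sets of near-identical members can share signal, and an array of total RNA reads precursor or host transcript rather than the mature form. Mir669j read 454 and 191 in control at day 0 and day 4, 914 and 1523 in Mbd3-knockdown cells, and 486 and 1248 in Chd4-knockdown cells. Mir669i, of the same family, had the largest higher difference of all genes by its brightest probe set, at 80.7 and 765 (9.48-fold), and 2.35 on the log2 scale by the mean of its probe sets. The host gene Sfmbt2 read 199 and 1185 (5.96-fold). Of 18 genes of the Mir297, Mir466, Mir467 and Mir669 families, a group singled out after the values were seen, 14 were past 2-fold above control and 0 below. Of 173 microRNA genes 19 were higher (11.0%) and 2 lower (1.16%), against 3.44% and 4.89% of all genes compared. Those 14 family members make up most of the 19, so the higher share does not extend to microRNA genes at large. In the day 0 pair the same 18 genes had a median difference of 0.89.

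Outside that block, 7 microRNA genes past 2-fold have a mature form in the RefSeq table (GRCm38.p6), printed here 5′ to 3′ with the seed, bases 2 to 8, in capitals because the seed sets which targets a microRNA pairs with. No 2 of these arms share a seed. For the other 14 microRNA genes past 2-fold, all of the families above, no sequence is printed.
miR-290a-5p, chr7:3218639-3218660, plus strand: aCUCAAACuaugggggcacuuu
miR-290a-3p, chr7:3218674-3218697, plus strand: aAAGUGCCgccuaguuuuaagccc
miR-363-3p, chrX:52741697-52741718, minus strand: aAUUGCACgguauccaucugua
miR-493-5p, chr12:109580243-109580261, plus strand: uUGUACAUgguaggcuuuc
miR-493-3p, chr12:109580283-109580305, plus strand: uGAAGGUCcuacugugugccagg
miR-28b, chr8:73016523-73016543, plus strand: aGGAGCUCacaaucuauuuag
miR-1192, chr19:23149450-23149471, plus strand: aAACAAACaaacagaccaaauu
miR-219a-5p, chr2:29845689-29845709, minus strand: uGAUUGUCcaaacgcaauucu
miR-1983, chr13:21896930-21896950, minus strand: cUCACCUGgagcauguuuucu

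Mir290a, the first gene of the cluster that stem cells express most, read 445 and 87.8 in control and 544 and 313 in Mbd3-knockdown cells at day 0 and day 4 (3.57-fold higher at day 4). Mir493 read 94.7 and 291, and Mir363 94.0 and 195. Mir28b was at least 2.80-fold and Mir1192 at least 1.52-fold higher. Mir219a-2, whose product promotes oligodendrocyte maturation, was lower at 167 and 67.9, and Mir1983 at 107 and 52.5. The Mir363 value in the knockdown was above all 5 other arrays, which read 43.5 to 113.

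Differences past 2-fold also lay side by side along chromosomes. In the order of the RefSeq gene table, and with only compared genes counted as neighbours, 20 runs of 3 or more genes shared a direction, 11 higher and 9 lower, with 75 genes in all. The runs were singled out after the values were seen, and many are families of near copies whose probes may share signal. The longest, with 12 genes, was Sfmbt2 and its microRNAs. A run of 5 zinc-finger genes went from Rex2 (162 and 735) to Zfp534 (208 and 625), and another joined Zfp600, Zfp992, Zfp981 and Gm21082. Zfp981 read 272 and 2018 at day 4 (7.41-fold). Runs that held genes of different families included Triml1, Triml2, Zfp42 and Fat1, and Lefty2, Lefty1, Tmem63a and Ephx1. On the lower side stood the noncoding Pantr1 beside Pou3f3, and Nefl, Nefm and Stc1. Of 143 genes named Zfp600 to Zfp999, 12 were higher and 8 lower with a median of -0.21, so the family as a whole did not share the direction of these runs.

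**Figure D4:**
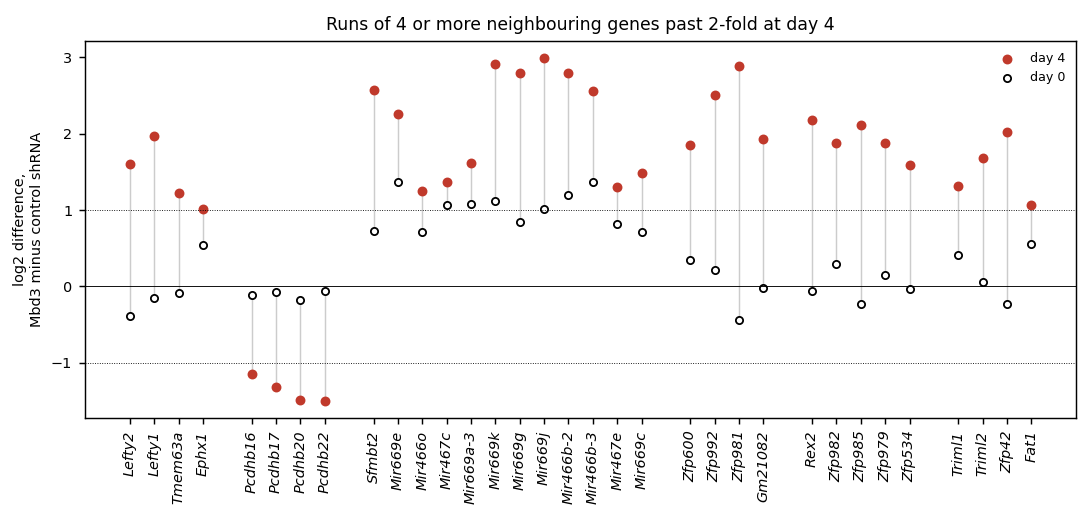
Log2 difference of Mbd3-knockdown minus control cells at day 4 (red) and day 0 (open circles) for the genes in runs of 4 or more neighbours past 2-fold in one direction, in chromosomal order, with dotted lines at 2-fold. The Sfmbt2 block and the zinc-finger runs are above 1 at day 4, the Pcdhb run below -1, and at day 0 values past 2-fold occur among the microRNA genes of the Sfmbt2 block only.

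Targets of p53, the stress-responsive factor named in the series title, were higher more often than lower. Of 36 compared, 33 were above control, 5 of them by 2-fold, and 3 below, with a median of 0.58 against 44.1% of all genes above control. Cd80, an immune costimulatory ligand, read 34.5 and 299, at least 7.22-fold higher. Perp, a desmosome and apoptosis gene, read 52.5 and 188, Epha2 83.8 and 250, Trp53inp1 416 and 1003 and the death receptor Tnfrsf10b 333 and 750. Control cells at day 0 had read 377 for Epha2, 275 for Perp and 109 for Cd80, each above control at day 4. The classic targets Cdkn1a and Mdm2 stayed under 2-fold, at 365 and 557 and at 404 and 804, and Bbc3 differed by 0.35. At day 0 the list median was 0.29. From day 0 to day 4 the median change of the list was -0.46 in control and -0.28 in the Mbd3 line. Against control at day 0, the Mbd3 line at day 4 had a median difference of -0.03. The list thus fell in both lines, and further in control. Of 24 apoptosis genes 1 was past 2-fold, the survival gene Bcl2, at 187 and 56.8, and the mean of its probe sets differed by -0.89.

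Genes of glycolysis and of the hypoxia response were lower. In this list of 37, 13 were at least 2-fold lower and 0 higher, with 31 below control and a median of -0.77. The factor HIF1 binds the letters ACGTG in front of many such genes. The promoters of 3 low members that hold these letters on either strand are shown. Egln1 (-2.13) and Tpi1 (-1.85), which were lower than P4ha1 (-1.74), are not shown. Whether the letters bear on the difference was not tested. Printed are the 250 bases before the start in RefSeq (GRCm38.p6), each 5′ to 3′ on the gene's strand, with ACGTG and its reverse complement CACGT in capitals.
Egln3, chr12:54203875-54204124, minus strand: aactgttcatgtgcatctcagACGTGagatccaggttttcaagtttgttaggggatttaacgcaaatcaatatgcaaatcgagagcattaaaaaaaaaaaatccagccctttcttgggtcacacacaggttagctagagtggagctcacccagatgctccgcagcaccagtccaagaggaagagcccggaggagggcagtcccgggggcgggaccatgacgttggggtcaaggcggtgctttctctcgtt
Bnip3, chr7:138909507-138909756, minus strand: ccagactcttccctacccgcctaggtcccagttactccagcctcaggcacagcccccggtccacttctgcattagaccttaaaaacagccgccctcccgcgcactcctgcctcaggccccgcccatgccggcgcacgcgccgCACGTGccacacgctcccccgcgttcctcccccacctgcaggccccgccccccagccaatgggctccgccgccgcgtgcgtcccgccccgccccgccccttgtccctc
P4ha1, chr10:59323046-59323295, plus strand: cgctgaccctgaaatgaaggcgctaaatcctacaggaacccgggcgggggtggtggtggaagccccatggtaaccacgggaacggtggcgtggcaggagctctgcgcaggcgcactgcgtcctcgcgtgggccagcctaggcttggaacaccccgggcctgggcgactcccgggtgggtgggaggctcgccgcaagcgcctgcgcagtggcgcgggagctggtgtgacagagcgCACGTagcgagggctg

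Egln3, an oxygen sensor that is itself a hypoxia target, read 216 and 368 in control and 289 and 64.6 in Mbd3-knockdown cells at day 0 and day 4, and 58.9 in Chd4-knockdown cells at day 4. It was lower in the Mbd3 line at day 4 than on any array of day 0. Egln1, its relative, read 594 and 136, Bnip3, a mitophagy gene, 341 and 81.1, P4ha1, a collagen hydroxylase, 456 and 137, and the growth factor Vegfa 354 and 125. Among the enzymes of glycolysis, Tpi1 read 2264 and 630, Pfkl 858 and 339, Pgk1 2759 and 1325 and Ldha 226 and 108, while Gapdh read 5810 and 5438. Pfkp and Pdk1 were above control, by 0.82 and 0.78. ACGTG on either strand stood in 25 of the 35 members with a promoter in the table (71.4%), in 28.3% of the genes compared and in 21.8% of all 27025 promoters of 300 bases, a window from 250 before to 50 after the start. The 25 members with it had a median of -0.90 and the 10 without it -0.60, and of all 665 lower genes 24.3% of those with a promoter held it.

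Cholesterol synthesis genes were lower by smaller amounts. Of 19, 18 were below control, 2 of them by 2-fold, and the median was -0.71. All 15 members with a promoter in the table held CCAAT on either strand, the letters bound by NF-Y, against 42.5% of the genes compared and 41.1% of all promoters. Both members past 2-fold are shown in the same window, with CCAAT or its reverse complement ATTGG in capitals.
Cyp51, chr5:4104698-4104947, minus strand: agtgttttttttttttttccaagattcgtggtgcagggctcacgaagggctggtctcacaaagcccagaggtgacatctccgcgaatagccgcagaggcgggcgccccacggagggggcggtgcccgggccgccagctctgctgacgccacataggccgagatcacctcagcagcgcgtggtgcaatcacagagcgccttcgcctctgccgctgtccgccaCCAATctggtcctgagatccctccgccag
Insig1, chr5:28071162-28071411, plus strand: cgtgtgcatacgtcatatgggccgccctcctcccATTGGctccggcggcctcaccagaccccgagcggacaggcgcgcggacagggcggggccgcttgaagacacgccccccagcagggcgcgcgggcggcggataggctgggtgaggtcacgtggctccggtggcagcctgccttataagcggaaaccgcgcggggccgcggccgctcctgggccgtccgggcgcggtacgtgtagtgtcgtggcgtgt

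Cyp51, a sterol demethylase, read 148 and 406 in control and 94.3 and 188 in Mbd3-knockdown cells at day 0 and day 4. Insig1, the sterol sensor that holds back the pathway's activator, read 465 and 821 in control and 345 and 401 in the knockdown. Hmgcs1 read 2187 and 1226 at day 4 and Srebf2, that activator, 833 and 718. Both lines were thus higher at day 4 than at day 0 for Cyp51 and Insig1, with control further up. By comparison 0 of 23 oxidative phosphorylation genes passed 2-fold (range -0.30 to 0.29), and 0 of 18 ribosomal protein genes (-0.25 to 0.48).

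Several other genes stood apart from their lists. Hspb1, a small heat shock protein, read 434 and 61.1 in control cells at day 0 and day 4, and 323 in the Mbd3 knockdown at day 4, the 1 of 15 protein folding genes past 2-fold. P2rx7, an ATP-gated channel, read 76.3 and 233. Txnip, a thioredoxin-binding brake on glucose uptake, read 302 in control, 72.5 in the Mbd3 and 265 in the Chd4 knockdown at day 4 (4.17-fold lower in the Mbd3 line), and between 566 and 751 on the 3 day 0 arrays. Its relative Arrdc4 differed by -0.78. The imprinted growth factor Igf2 read 269 in control, 596 in the Mbd3 and 206 in the Chd4 knockdown at day 4, while the imprinted genes Dlk1, Ndn, Grb10, Sgce and Mest were 2.04-fold to 3.71-fold lower and Phlda2 and Ascl2 3.02-fold and 2.46-fold higher. Of 16 interferon response genes 4 were 2-fold or more higher, or 2 with dim values set to 41.4, with Irf1 at 51.2 and 128. Of 17 mesoderm and 13 endoderm genes 0 were higher and 1 and 2 lower (Isl1, and Cxcr4 and Lama1, which neural cells or other tissues also express).

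The day 4 levels of the Mbd3 line were then placed beside those of stem cells. Of the 468 higher genes, 386 (82.5%) had a day 4 value in the knockdown within 2-fold of control cells at day 0, 63 stood at least 2-fold above it and 19 at least 2-fold below. Of the 665 lower genes, 585 (88.0%) stood within 2-fold of control cells at day 0. Over all genes compared that share was 96.8%. These shares use the same knockdown array as the day 4 difference and are a description. A set of 32 genes stood 2-fold or more higher in the Mbd3 line at day 4 than in the control at day 4, the control at day 0 and the Mbd3 line at day 0. They included Dazl, Sohlh2, Stra8, Zfp981, Wnt8a, Igf2, Wt1 and Prss8. Wt1, a factor of the urogenital ridge, read 61.1 and 164 at day 4 and 78.2 and 53.8 at day 0. Prss8, an epithelial protease, read 115 and 332, and 95.9 and 119. Only 6 genes were lower than all 3: Egln3, Vim, Txnip, Bhlhe40, Ddah1 and Jam2. Bhlhe40, a hypoxia-inducible repressor, read 578 and 187 at day 4 and between 446 and 550 on the 3 day 0 arrays. The Chd4 line at day 4 had no part in these sets. It read 58.9 for Egln3 and 143 for Bhlhe40, further below control, but 650, 265, 232 and 470 for Vim, Txnip, Ddah1 and Jam2. Of the higher genes named, it stood further above control for Dazl, Sohlh2, Stra8 and Zfp981, but not for Wnt8a, Igf2, Wt1 and Prss8.

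The Chd4 knockdown at day 4 was measured against the same control array, so likeness between both comparisons is partly given by that array, and their medians are only set side by side. They were -1.64 in the Mbd3 and -2.13 in the Chd4 knockdown for radial glia genes, 1.03 and 1.49 for naive factors, 0.45 and 0.82 for germline genes, 0.58 and 0.64 for p53 targets and -0.77 and -0.78 for glycolysis and hypoxia genes.

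Taken over all genes, the difference between Mbd3-knockdown and control cells at day 4 bore little relation to that at day 0. The day 0 difference comes from 2 other arrays of the same lines. Across the 12827 genes compared at both days, which are not independent replicates, the 2 differences had r = 0.09 and rho = 0.05. At day 0, 49 of 13389 genes stood 2-fold or more above control (0.366%) and 42 below (0.314%). Of the genes compared at both days, 22 were 2-fold or more higher at both, out of 48 at day 0 and 453 at day 4. The 22 are 45.8% of the genes higher at day 0, against 3.44% higher among all genes compared at day 4. On the lower side 10 were shared, out of 39 and 509: Ccnd2, Nefl, Sfrp1, Fgf15, Soga3, Vgll3, Ccnd1, Igf2bp3, Eya1 and Scd1. These 10 are 25.6% of the genes lower at day 0, against 4.89% lower among all genes compared at day 4. Genes past 2-fold at day 0 were thus past it in the same direction at day 4 more often than genes at large. Among the 22 were 8 microRNA genes of the Sfmbt2 families, the iodide carrier Slc5a5 (105 and 229 at day 0, 47.4 and 256 at day 4) and the endothelial genes Mmrn2 and Tek. Opposite directions past 2-fold were seen in 8 genes. Epas1, which encodes the hypoxia factor HIF2 alpha, read 346 in control and 145 in knockdown cells at day 0, and 58.0 and 261 at day 4. Bmp4, Plet1, Cbr3, Mc5r and Gm20939 likewise were lower at day 0 and higher at day 4. Ddit4, a stress-induced inhibitor of mTOR, read 152 and 342 at day 0, and 515 and 250 at day 4, and the adhesion receptor Adgrg1 94.1 and 206, and 410 and 146.

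**Figure D5:**
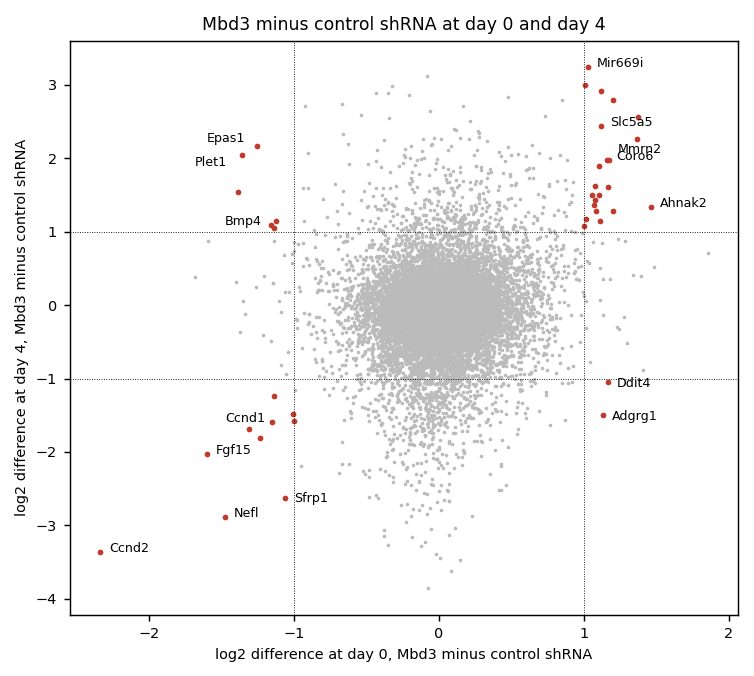
Log2 difference of Mbd3-knockdown minus control cells at day 0 (horizontal axis) and day 4 (vertical axis), with dotted lines at 2-fold. Points are the 13588 genes compared at day 4, of which 12827 were compared at both days. Red points are past 2-fold at both days: 22 genes at the upper right, 10 at the lower left, 6 at the upper left and 2 at the lower right.

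Genes measured by several probe sets gave a limited check within the arrays. Of 518 genes with more than 1 probe set above the median, 50 had at least 1 past 2-fold, 19 of them had every probe set past 2-fold in the same direction, and 0 had probe sets past 2-fold in both directions. The other probe set of Cdh2 differed by -2.65 beside -2.29, that of Cdh1 by 0.59 beside 1.78, and that of Fgf15 by -0.50 beside -2.03. Using the mean of a gene's probe sets also moved Irx3 from -2.52 to -1.49, Notum from 1.96 to 1.08, Hspb1 from 2.40 to 1.33 and Mir669i from 3.24 to 2.35. Direction was shared in these cases, while size depended on the probe set.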

How the data were processed

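Gene expression was measured on 6 Mouse Gene 2.0 ST arrays, 1 for each shRNA and day. GeneSpring GX 12.6.1 is the authors' software, per the series design text, and RMA (background subtraction, quantile normalization, summary of probes) is named in the submitters' processing notes. The deposited intensities are linear, from 17.4 to 7980. The sources used here name no genome build for the arrays. Each array's minimum was 17.4 to 17.6, as a constant of 16 would leave, so 16 was subtracted in an alternative.

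Probe sets with 1 symbol (23521; 1814 had several, 9016 none) were named from the platform annotation, updated through the RefSeq table of GRCm38.p6 by gene ID (23328 found). Of several probe sets of a gene, that with the highest mean log2 intensity over the 6 arrays was used. Log2 differences were taken without further scaling, and genes past 2-fold were counted. With 1 array a group no p-value was computed, and precision is limited by that number. The members and the 55 gene lists were chosen with earlier results of these data known, so they support nothing independently. Of 1120 listed symbols 1014 matched, 15 more through a synonym, and the other 91 were not analysed here. The text prints only part of the set of named genes. That set holds the NuRD genes and the 15 highest and 15 lowest of all (predicted genes left out). It also holds up to 5 members of each list in each direction, members past 2-fold and the genes nearest the 2-fold line. Others (families, runs, members under 2-fold, genes outside the range of day 0) were chosen after their values were seen. Motifs were counted on both strands in RefSeq promoters, and mature microRNAs come from the same release. The counting was tested on simulated data. Alternatives changed the constant, the filter, the probe set rule, the scaling and the floor. Python 3.11.15, numpy 2.4.6, pandas 2.3.3 and matplotlib 3.10.9 were used.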

Additional observations from a re-analysis of the deposited data

Results flagged for a closer look

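In 5 genes, each with all 4 values at or above 41.4, the difference between Mbd3-knockdown and control cells was past 2-fold in one direction at day 0 and in the other at day 4. The difference between the days was not tested, since each group is 1 array. At day 4 the log2 differences were -1.50 for Adgrg1, -1.04 for Ddit4, 1.09 for Bmp4, 2.17 for Epas1 and 1.54 for Gm20939. At day 0 they were 1.13, 1.17, -1.16, -1.26 and -1.39 in that order.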

How the results depend on the processing

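No paired analysis was possible because each group holds 1 array, and for the same reason no replicate could be left out. A list median was taken as unchanged when it moved by less than 1.5-fold. Subtracting 16 gave 1029 genes at least 2-fold lower in place of 665, and 682 genes at least 2-fold higher in place of 468, and the Hox median went from -1.03 to -1.62. Without the filter on dim genes, medians were -0.027 for Hox genes, -0.10 for WNT antagonists, -0.57 for hindbrain and TALE genes and -0.78 for proneural genes, since this setting adds genes dim on both arrays. With both arrays at or above their median they were -1.75 for Hox genes and -1.84 for WNT antagonists, and the median log2 difference, Proneural and neuronal bHLH, was -0.999, with fewer genes left. The mean of all probe sets gave -1.13 for proneural genes; the cause was not tested. Under the other settings (median centring, with 416 higher and 744 lower genes; quantile normalization, with 502 and 606; dim values set to 41.4, with 433 and 616) no list median moved by 1.5-fold, and no named gene past 2-fold changed direction under any setting. Of 529 named genes, those that dropped under 2-fold were Bcl2, Chd3, Dll1, Etv5, Sfrp2 and Sox21 with the mean of probe sets, Lin28b, Tc2n and Xylt1 with quantile normalization, Ddx58, Fgd1, Lamb1 and Tc2n with centring, and Cdh20, Epo, Oasl2, Sting1 and Tc2n with dim values at 41.4. Brightness limits the folds of several proneural and neuronal genes (Neurog1, Nhlh1, Neurod4, Chrna3), whose knockdown values lay under the array median.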

Other observations

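Gene families were also read as wholes, chosen after their values were seen. Over all genes compared, 3.44% were past 2-fold above control and 4.89% below. Of 247 solute carriers, 19 stood past 2-fold above control (7.69%) and 6 below (2.43%), with a median log2 difference of 0.03. Of 74 small nucleolar and Cajal body RNA genes 0 were above and 6 below (8.11%), of 15 tetraspanins 0 and 4, and of 39 tripartite motif genes 5 (12.8%) and 0. Because the families were picked by their values and the shares were not tested, these counts set no family apart from the rest. The Klf family, which holds several naive pluripotency factors, had 4 of 16 members above and 0 below.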
